A study of Mus musculus with 16 samples.

Results

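Epididymal white adipose tissue of obese male mice given tubastatin A was compared with the same fat pad of mice given vehicle, across all genes with a mean of at least 1 FPKM (a fragment count corrected for gene length and library depth). The comparison used 8 of the 16 RNA-seq libraries of the series, 4 per group, and 13282 of the 54532 gene IDs in the deposited table reached that mean. The tubastatin group received the hydrochloride salt of tubastatin A, and the vehicle group received vehicle alone. Both groups were C57BL/6 males labelled 25 weeks old after 20 weeks on a high-fat diet. The labels also give both groups a global knockout of HDAC6, whereas the series design names no knockout and an age of about 28 weeks, so the genotype and age behind both groups are uncertain. The sources used here give neither dose nor duration, and inguinal fat was not analysed here. Whether the 4 libraries of a group stem from 4 animals is not stated, so the p-values reflect library-to-library spread, which may be technical.

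HDAC6 is a mainly cytoplasmic deacetylase that acts on tubulin, cortactin and the chaperone HSP90, and its ubiquitin-binding domain carries misfolded proteins to aggresomes. Tubastatin A occupies the catalytic pocket of the enzyme. The proteasome, the other main route for ubiquitinated proteins, is built from a barrel-shaped core particle, where alpha subunits form the outer rings and beta subunits the inner rings that cut proteins, and a regulatory particle that recognises, unfolds and feeds in its substrates. Epididymal fat is a visceral depot in which obesity brings in macrophages and lymphocytes beside the fat cells.

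Hdac6 (ENSMUSG00000031161, chromosome X) was read at 1.70, 1.53, 1.44 and 1.59 FPKM in the tubastatin libraries and at 1.78, 1.41, 1.66 and 1.48 FPKM in the vehicle libraries, from 164 to 245 reads each. The values overlapped throughout (exact two-sided permutation p = 0.83, where 4 against 4 libraries can reach 0.0286). Whole-gene RNA does not show whether an exon is missing, so these reads do not settle the genotype label. Depth, recovered from the step that 1 read makes in the FPKM values, was 19969964 to 24776803 reads with tubastatin and 19148810 to 21906045 with vehicle. The FPKM of all genes summed to 318205 to 323119 with tubastatin and to 326319 to 351723 with vehicle, without overlap. Fat cell markers were abundant in every library, with Adipoq, the adiponectin gene, at 527 to 759 FPKM with tubastatin and 564 to 988 with vehicle, and Cidec, which enlarges lipid droplets, at 683 to 782 and 662 to 1260 FPKM. Of 12 markers of epididymal epithelium, 1 reached a mean of 1 FPKM. Vehicle replicate 2 stood apart, as the highest library for 21.4% of genes and the lowest for 19.7%, and on the first principal component (25.4% of the variance) tubastatin replicate 1 lay at -5.42, apart from the other tubastatin libraries at 10.46 to 22.5 and among the vehicle libraries at -17.24 to -2.58.

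No single gene passed the test. Limma-trend with Benjamini-Hochberg adjustment called 0 of 13282 genes (0%), and the smallest adjusted p was 0.143. At an unadjusted p under 0.05 there were 795 genes higher with tubastatin (5.99% of those tested) and 803 lower (6.05%). All 4 tubastatin values lay above all 4 vehicle values for 475 genes (3.58%) and below them for 476 (3.58%). Differences were small, since 95.6% of genes had a log2 fold change within 0.5 of 0 on the log2(FPKM + 1) scale, which is the scale of all fold changes given and understates those of low genes. Beyond a log2 fold change of 1 there were 40 genes higher, 19 of them without overlap, and 47 lower, 13 of them without overlap.

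The split between directions depended on level and on scaling. Among genes with a mean of 1 to 2 FPKM, 4.47% stood higher without overlap and 2.52% lower, whereas among genes of 20 to 100 FPKM 2.02% stood higher and 6.19% lower. The higher genes made up 49.7% of those at an unadjusted p under 0.05, but 87.7% after scaling to TPM (1698 higher, 238 lower) and 62.2% after quantile normalization (954 higher, 580 lower). With TPM the median log2 fold change of all genes was 0.057, against -0.015 in the deposited FPKM. Differences no larger than the gap between these medians have no settled direction. The lysosome list, for example, had a median of -0.069 as deposited and 0.009 with TPM. Single libraries also mattered. Of 67 gene lists, 59 had a median log2 fold change that moved by over 1.5 times or changed sign when 1 library was left out, and in 19 of them the sign changed. The 8 others were the lists for proteasome subunits, selective autophagy, the circadian clock, small-molecule metabolism and markers of B cells, neutrophils, eosinophils and neurons.

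**Figure D1:**
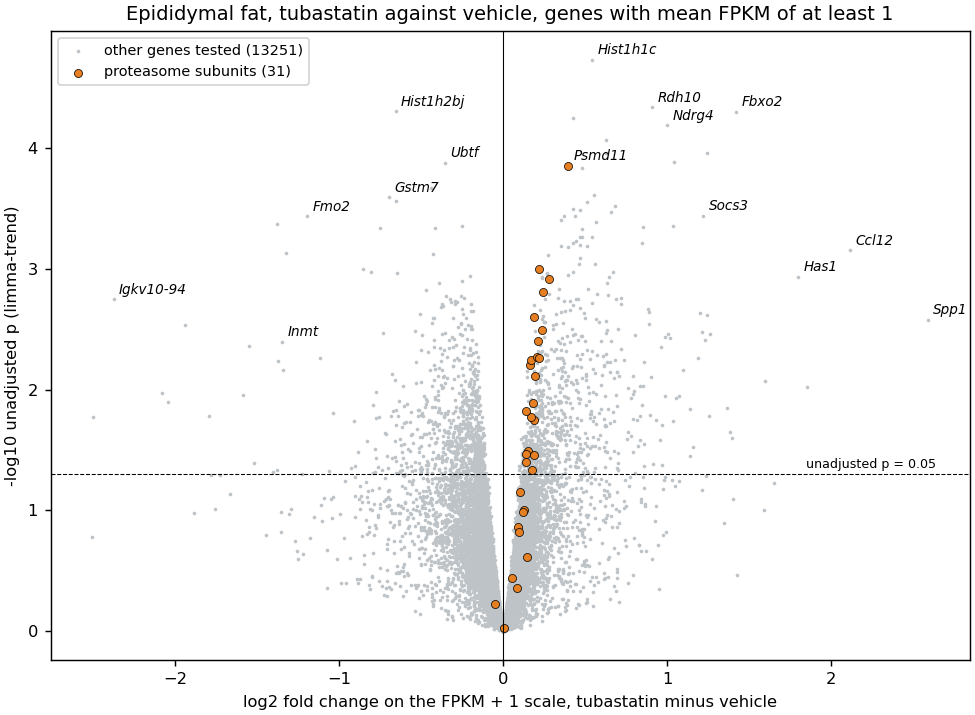
Each point is 1 of the 13282 genes tested, with the log2 fold change of tubastatin minus vehicle on the horizontal axis and the -log10 unadjusted limma p on the vertical axis. The 31 proteasome subunits, in orange, lie at small log2 fold changes of -0.05 to 0.40, and 30 of them lie right of 0.

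The genes of the constitutive proteasome stood higher with tubastatin more often than any other list of 10 or more tested genes by the share of members without overlap. All 31 subunits were tested, 30 had a positive fold change with a median of 0.17, and 18 (58.1%) stood higher without overlap, beside 3.58% of all genes. At an unadjusted p under 0.05 there were 21 subunits higher, beside 5.99% of all genes, and 0 lower. None passed adjustment over all genes, and the sizes were modest, at most a log2 fold change of 0.40. Vcp, Adrm1 and the other partners were chosen after their values were seen, as were the subunits named beyond Psmd11, Psmb2 and Psmd1.

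The promoters of 4 subunits without overlap are shown because these genes share the difference, and they come from 3 positions in the particle. RefSeq promoters (GRCm38.p6) were matched for 25 of the 31 genes, and the 250 bases before the start are printed from 5′ to 3′ on the strand of the gene. Capitals mark a CCAAT box, read as CCAAT or its complement ATTGG. Psmd11 lies at chr11:80428365-80428614 on the + strand, Psmd1 at chr1:86064369-86064618 on the + strand, Psmc6 at chr14:45329574-45329823 on the + strand and Psma7 at chr2:180042465-180042714 on the - strand.
Psmd11: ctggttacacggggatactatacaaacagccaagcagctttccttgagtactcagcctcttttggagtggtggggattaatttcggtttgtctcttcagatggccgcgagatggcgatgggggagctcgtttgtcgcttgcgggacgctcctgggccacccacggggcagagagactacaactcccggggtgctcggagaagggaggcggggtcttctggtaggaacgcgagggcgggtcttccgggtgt
Psmd1: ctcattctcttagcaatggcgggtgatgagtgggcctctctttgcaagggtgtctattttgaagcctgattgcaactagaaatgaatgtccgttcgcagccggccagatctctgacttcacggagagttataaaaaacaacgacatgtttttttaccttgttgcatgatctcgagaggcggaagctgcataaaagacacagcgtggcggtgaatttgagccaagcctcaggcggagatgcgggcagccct
Psmc6: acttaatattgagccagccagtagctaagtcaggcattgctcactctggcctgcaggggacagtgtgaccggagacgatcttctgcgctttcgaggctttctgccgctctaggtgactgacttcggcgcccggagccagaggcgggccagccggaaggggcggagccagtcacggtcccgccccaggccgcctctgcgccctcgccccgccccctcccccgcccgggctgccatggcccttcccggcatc
Psma7: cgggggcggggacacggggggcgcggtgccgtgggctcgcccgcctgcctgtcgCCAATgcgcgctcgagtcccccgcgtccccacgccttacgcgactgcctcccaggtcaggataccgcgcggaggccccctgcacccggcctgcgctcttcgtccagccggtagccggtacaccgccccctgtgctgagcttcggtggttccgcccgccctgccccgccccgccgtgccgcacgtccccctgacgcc
Of these 4 stretches, Psma7 alone holds a CCAAT box. The G and C content is 59.2% in Psmd11, 49.6% in Psmd1, 68.0% in Psmc6 and 77.2% in Psma7. In windows of 250 bases before to 50 after the start, read on both strands, CCAAT occurred in 37.0% of 27 proteasome promoters and 37.0% of 12324 promoters of all genes tested. GCGTG occurred in 48.1% and 49.3%, and CACGTG in 3.7% and 9.76%. The letters TGACNNNGC, chosen after the data were seen, occurred in 14.8% of proteasome promoters and 14.4% of all. A match or its absence describes these letters only.

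In the lid and base of the regulatory particle, Psmd11, a scaffold subunit of the lid (chromosome 11, 80428615 to 80473248 in GRCm38), led the list. It stood at 15.6, 17.0, 16.5 and 16.4 FPKM in the tubastatin libraries, against 11, 13.1, 12.4 and 12.5 FPKM in the vehicle libraries. Each tubastatin library was above each vehicle library, with a fold change of 0.40 on the log2 scale (limma SE 0.06 and adjusted p = 0.149). Psmd1, a large scaffold of the base that receives ubiquitin receptors, stood at 20.9, 20.3, 23.1 and 21.9 FPKM with tubastatin and at 16.8, 18.4, 16.9 and 18.3 FPKM with vehicle. Psmd3, a lid subunit, stood at 26.9, 27.7, 26.8 and 26.9 FPKM with tubastatin and at 21.8, 24.4, 23.2 and 21.5 FPKM with vehicle. Neither overlapped, and the log2 fold changes were 0.28 and 0.24. Of the ATPases that unfold substrates, Psmc6 stood at 24.3 to 26.0 FPKM with tubastatin and at 21.6 to 22.5 with vehicle (0.19), and Psmc4 at 36.4 to 39.1 and 30.9 to 35.1 FPKM (0.21). Psmc2 (0.17), Psmc3 (0.17) and Psmc1 (0.10) also did not overlap, while Psmc5 (0.13) did. Psmd14, the lid enzyme that removes ubiquitin chains, stood at 25.6 to 26.9 FPKM with tubastatin and at 22 to 25.1 FPKM with vehicle (0.14).

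In the core particle, Psmb2, a beta-ring subunit, was the tightest example. It stood at 61.9, 63.2, 63.4 and 65.7 FPKM with tubastatin and at 54.8, 54.0, 54.9 and 53.6 FPKM with vehicle. The groups were well apart relative to their own spread, with 0.22 as the log2 fold change (limma SE 0.04 and adjusted p = 0.238). Of the alpha ring, Psma7 stood at 37.0, 36.4, 40.9 and 39.1 FPKM with tubastatin and at 32.2, 32.1, 34.4 and 30.8 FPKM with vehicle (log2 fold change 0.24), and Psma5 at 55.0 to 63.7 and 49.0 to 52.4 FPKM (0.22). Among the catalytic subunits the groups overlapped. Psmb5, the chymotrypsin-like subunit, stood at 75.6 to 91.3 FPKM with tubastatin and 57.5 to 81.0 with vehicle (0.15), Psmb7, the trypsin-like one, at 18.4 to 22.5 and 17.2 to 22.6 FPKM (0.08), and Psmb6, the caspase-like one, at 47.7 to 58.6 and 50.7 to 64.0 FPKM (-0.05). Psmb6 was the only member below 0, though not after TPM or quantile scaling, and Psma6 lay at 0.01.

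**Figure D2:**
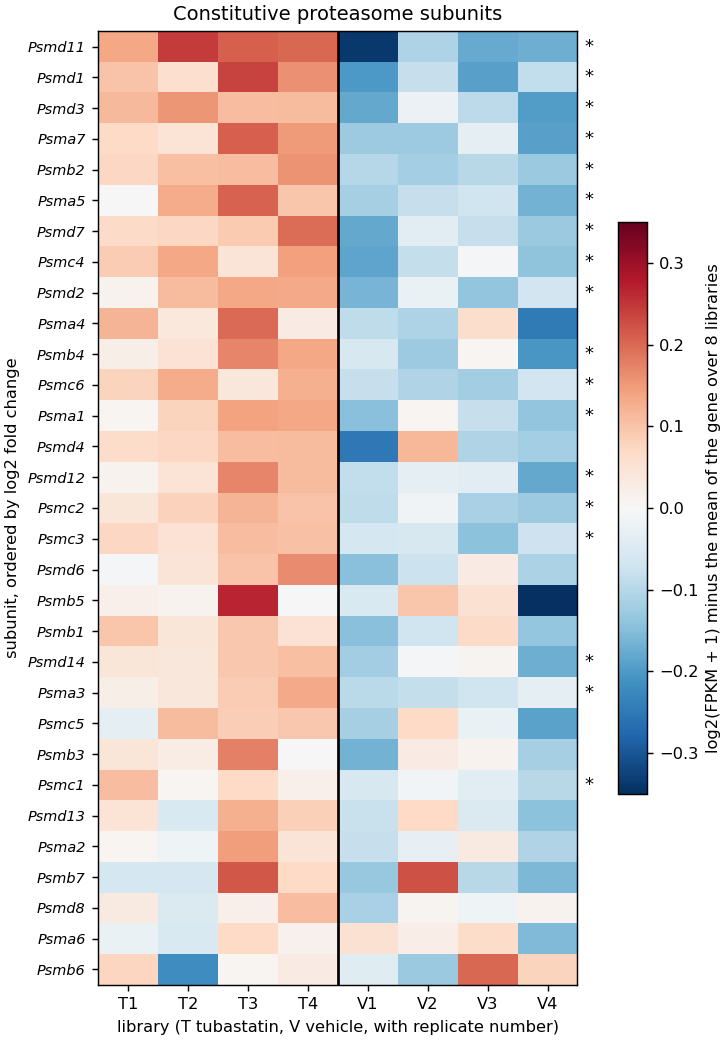
Rows are the 31 constitutive proteasome subunits ordered by log2 fold change and columns are the libraries, tubastatin (T1 to T4) left of vehicle (V1 to V4). Colour gives log2(FPKM + 1) minus the mean of the gene over 8 libraries, and an asterisk marks the 18 subunits whose groups do not overlap.

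Over the fits with other scalings, pseudocounts, filters and single libraries left out, the median of the subunits lay between 0.153 and 0.251, with 29 to 31 of 31 positive. Without vehicle replicate 2 and tubastatin replicate 1 together it was 0.205. The mean centred level of the list was 0.046, 0.048, 0.128 and 0.1 in the tubastatin libraries and -0.121, -0.028, -0.040 and -0.133 in the vehicle libraries. Levels of the immediate early, aryl hydrocarbon receptor and neutrophil lists also stood higher without overlap and those of the clock and small-molecule lists lower, so these lists separate the same libraries. All 12 neutrophil markers together, 7 of them with a mean below 1 FPKM, summed to 21.84 to 42.93 FPKM with tubastatin and to 12.01 to 20.55 FPKM with vehicle, and none was at 0 in all 8 libraries. Their part in the subunit levels was not tested, and in bulk tissue fewer cells of a type and less RNA per cell cannot be told apart.

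Immunoproteasome subunits, which replace the catalytic ones in immune cells and under interferon, had negative fold changes. Psmb10 stood at 31.0, 28.8, 34.4 and 30.5 FPKM with tubastatin and at 39.4, 38.4, 46.6 and 36.5 FPKM with vehicle, and the groups did not overlap (-0.35 on the log2 scale, limma SE 0.09, adjusted p = 0.279). Psmb9 had a log2 fold change of -0.28 and Psmb8 of -0.16, and both overlapped. A list of 29 assembly factors, activators and partners of the proteasome, put together after the data were seen, was split between 14 positive and 15 negative members. Its median of -0.013 turned positive with TPM (0.062) and with quantile normalization (0.006). In it, 5 of 29 members stood higher at an unadjusted p under 0.05, beside 5.99% of all genes, and 0 lower. They were Adrm1, a ubiquitin receptor of the particle (0.15), Vcp, an ATPase that extracts ubiquitinated proteins (0.14), its cofactor Nploc4 (0.17), Akirin2, which helps bring proteasomes into the nucleus (0.13), and the nuclear activator Psme4 (0.12). Nfe2l1, a transcription factor for proteasome genes, stood at 70 to 79.9 FPKM with tubastatin and 75.2 to 106 FPKM with vehicle (-0.24), and Pomp, the assembly chaperone of the core particle, at 16.9 to 17.6 and 15.5 to 17.9 FPKM (0.05). Psme1 and Psme2, the interferon-inducible activator, lay at -0.16 and -0.21 with overlap.

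Other protein quality lists had fewer members without overlap. In the HSP90 and heat shock list 17 of 24 members were positive (median 0.039), and 3 (12.5%) stood higher without overlap, beside 3.58% of all genes. Hspb1, a small heat shock protein that binds actin and unfolded proteins, stood at 125, 216, 151 and 192 FPKM with tubastatin and at 102, 106, 102 and 93.5 FPKM with vehicle (log2 fold change 0.72). Ptges3, the HSP90 cochaperone p23, stood at 42.0 to 48.4 FPKM with tubastatin and at 37.2 to 40.2 FPKM with vehicle (0.20), and Hspa8, the constitutive HSP70, at 290 to 310 and 252 to 285 FPKM (0.12). In the aggresome and selective autophagy list 5 of 25 members were positive (median -0.101), and the 2 without overlap (8.0%, beside 3.58% of all genes), Plaa and Vcp, were higher. Of 22 unfolded protein response genes 0 stood higher and 3 lower at an unadjusted p under 0.05, beside 5.99% and 6.05% of all genes. Chac1, a glutathione-degrading enzyme induced by stress, stood at 2.41 to 3.61 FPKM with tubastatin and 3.66 to 5.88 FPKM with vehicle (-0.41). Lysosomal genes had 6 of 27 positive (median -0.069, but 0.009 with TPM and -0.132 to -0.021 with 1 library left out), with Ctsl, the protease cathepsin L, higher at 278 to 346 FPKM with tubastatin against 246 to 274 with vehicle. Cytosolic ribosomal proteins were nearly all on one side of 0, with 79 of 81 positive (median 0.143, or 0.074 without vehicle replicate 2 and 0.215 without vehicle replicate 3), yet 0 were without overlap. Their level was -0.295 and -0.153 in vehicle replicates 2 and 4 but 0.172 in vehicle replicate 3, above every tubastatin library.

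Among single genes, Hist1h1c, a linker histone (chromosome 13, 23738808 to 23740367), had the smallest p of all. It stood at 87.3, 92.3, 91.8 and 91.9 FPKM with tubastatin and at 56.6, 61.5, 63.6 and 66.7 FPKM with vehicle (log2 fold change 0.54, limma adjusted p = 0.143). Another linker histone, H1f0, stood at 42.9, 63.9, 56.1 and 51.2 FPKM with tubastatin and at 34.7, 41.6, 38.8 and 36.1 FPKM with vehicle (0.48). The core histone Hist1h2bj stood the other way, at 3.14, 2.59, 2.59 and 2.16 FPKM with tubastatin and 4.62, 5.09, 4.44 and 4.59 FPKM with vehicle, from 20 to 47 reads (-0.66). All 3 were without overlap. Over the 25 histone genes tested of 87 listed, 8 were positive, and how reads were shared between near-identical histone copies is not given. Ubtf, which opens ribosomal RNA genes for transcription, stood at 15, 16.8, 15.9 and 15.8 FPKM with tubastatin and at 21.5, 19.3, 21 and 20.6 FPKM with vehicle (-0.36). It was the only member without overlap (3.57%, beside 3.58% of all genes) among 28 genes of ribosomal RNA transcription and the nucleolus (median -0.042, and 0.023 with TPM). Of the deacetylases and sirtuins, 10 of 19 were positive and Hdac10 (-0.21) and Hdac9 (-0.13) stood lower without overlap (10.5%, beside 3.58% of all genes).

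Signalling genes without overlap included Rdh10, which makes retinaldehyde from retinol. It stood at 7.85, 8.95, 5.91 and 7.63 FPKM with tubastatin and at 3.68, 3.17, 4.10 and 3.23 FPKM with vehicle (log2 fold change 0.91). The next enzymes of retinoic acid synthesis did not go together, with Aldh1a2 at 12.9 to 18.1 FPKM with tubastatin and 7.69 to 13.7 with vehicle (0.57) and Aldh1a1 at 22.8 to 28.9 and 31.6 to 39.9 FPKM (-0.47). Of 21 retinoid genes 6 were positive (median -0.11, or -0.063 without vehicle replicate 4). Ahr, the aryl hydrocarbon receptor, stood at 3.96, 5.01, 3.76 and 5.16 FPKM with tubastatin and at 2.92, 2.25, 2.59 and 2.10 FPKM with vehicle (0.66), and 3 of 5 genes of its pathway were positive, including its target Cyp1b1 (0.29). Ndrg4 stood at 3.71, 6.51, 5.44 and 5.35 FPKM with tubastatin and at 2.27, 2.19, 1.78 and 2.10 with vehicle (1.0). Fbxo2, a substrate receptor for glycoproteins in a ubiquitin ligase, stood at 1.57, 3.39, 3.32 and 2.96 FPKM with tubastatin and at 0.324, 0.273, 0.673 and 0.330 with vehicle (1.42), and Fbxl16, another F-box gene, at 1.57 to 1.81 and 0.562 to 0.882 FPKM (0.62). For Rdh10, Ahr, Ndrg4, Fbxo2 and Fbxl16 the lowest tubastatin value was above the highest vehicle value. Fbxo2 and Fbxl16 reached a mean of 1 FPKM through the tubastatin libraries alone (vehicle means 0.400 and 0.727 FPKM).

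Immediate early genes had 15 of 20 positive members (median 0.178, or 0.102 without vehicle replicate 2 and 0.11 without tubastatin replicate 2), 5 higher without overlap (25.0%, beside 3.58% of all genes) and 1 lower (5%, beside 3.58%). Klf2, a zinc finger factor, stood at 57.5, 69.7, 59.2 and 59.9 FPKM with tubastatin and at 46.2, 38.3, 44.5 and 47.6 FPKM with vehicle (log2 fold change 0.47), and Fosl2, a subunit of the AP-1 factor, and Ier3, a survival gene, had 0.57 and 1.01. The leptin and JAK-STAT list was led by Socs3, which blocks leptin and cytokine receptors (1.22), while its median was 0.032, and -0.007 without tubastatin replicate 2. Glucocorticoid targets had 10 of 20 positive, with Mt1, a metallothionein, at 170 to 229 FPKM with tubastatin and 120 to 172 with vehicle (0.57) and Zbtb16 at 6.34 to 8 and 7.61 to 18.1 FPKM (-0.64). In the TGF-beta family 3 of 26 members stood lower without overlap (11.5%, beside 3.58% of all genes) and 0 higher. They were the coreceptor Tgfbr3 (-0.33), the latency protein Ltbp1 (-0.19) and Bmp4 (-0.58), a morphogen linked to fat cell commitment. Insulin and IGF genes had 9 of 24 positive, with the PI3K inhibitor Pik3ip1 at 5.66 to 6.28 FPKM with tubastatin and 7.23 to 7.48 with vehicle (-0.25). Hypoxia targets had 7 of 21 positive, with the oxygen sensor Egln3 (0.54) higher and hexokinase Hk2 (-0.37) lower without overlap. That is 4.76% of the list in each direction, near the 3.58% of all genes. The medians of the TGF-beta (-0.017), insulin (-0.043) and hypoxia (-0.042) lists became positive with TPM. With 1 library left out they lay between -0.074 and 0.027 for TGF-beta, -0.1 and -0.008 for insulin and -0.126 and 0.006 for hypoxia, so none has a settled direction. Cell cycle genes had 19 of 30 positive (median 0.094, but -0.015 without vehicle replicate 2 and -0.047 among genes of at least 5 FPKM). The inhibitor Cdkn1b (-0.20) and the replication helicase Mcm7 (-0.17) stood lower without overlap (6.67%, beside 3.58% of all genes).

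**Figure D3:**
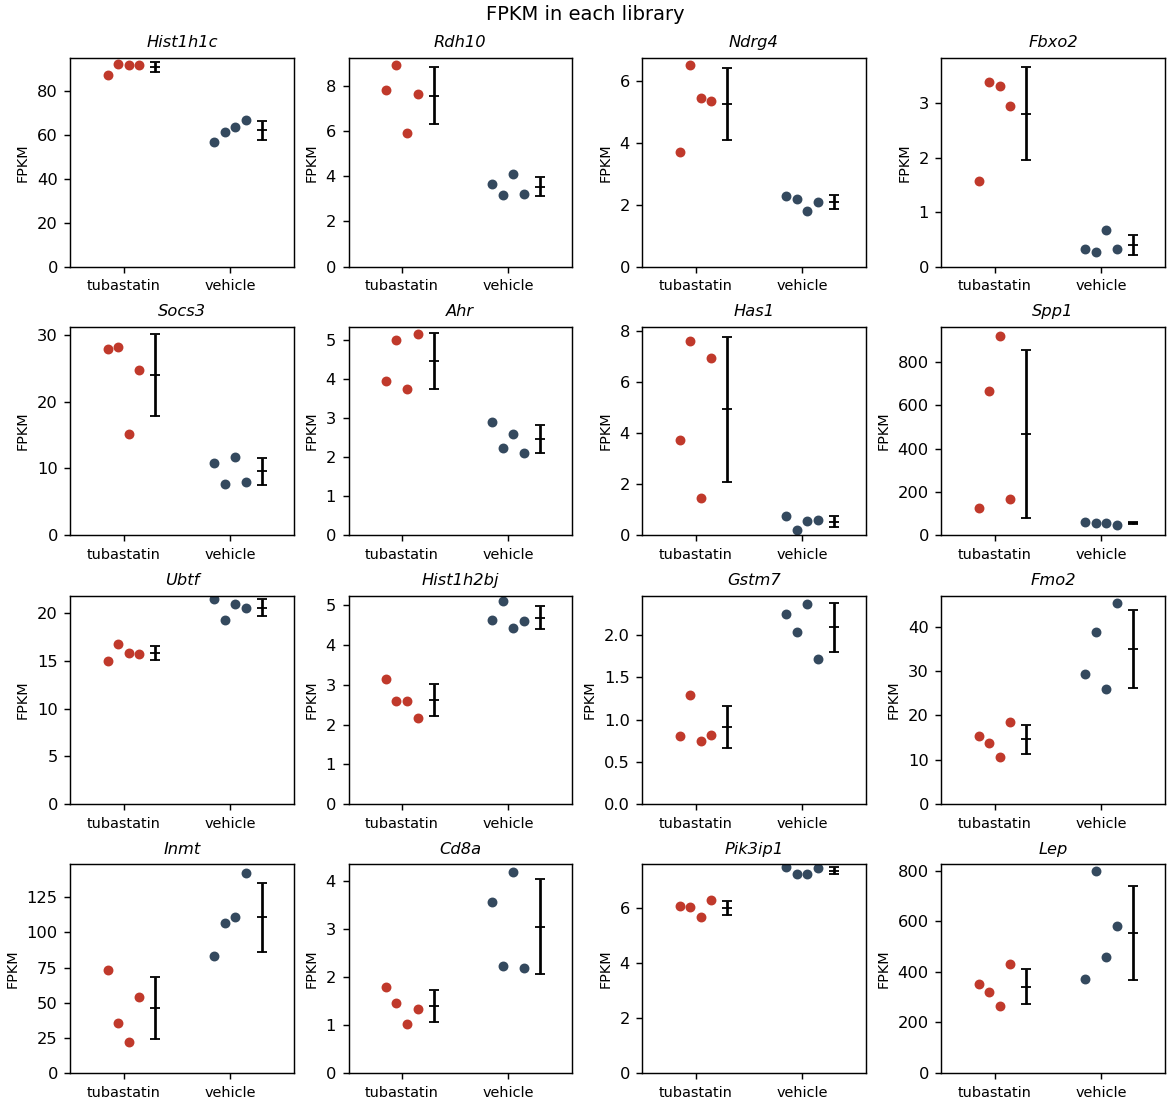
Dots give the FPKM of 16 genes in each library, tubastatin left of vehicle, and the bar gives the mean and SD of 4 libraries. Spp1 and Has1 spread widely with tubastatin (125 to 917 and 1.48 to 7.58 FPKM) but stay above vehicle, and Lep overlaps between the groups.

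Enzymes that handle small molecules and foreign compounds lay mostly below 0 in a list put together after Fmo2 and Gstm7 were seen among the leading genes. Of 42 tested members 10 were positive (median -0.233), 9 (21.4%) stood lower without overlap beside 3.58% of all genes, and 1 stood higher (2.38%). Fmo2 and Gstm7 are counted among the 9, so the way the list was chosen raised that share in part. Fmo2, a flavin-containing monooxygenase (chromosome 1, 162874317 to 162898726), stood at 15.4, 13.8, 10.6 and 18.6 FPKM with tubastatin and at 29.4, 38.8, 26.1 and 45.3 FPKM with vehicle (log2 fold change -1.19). Inmt, which methylates indole amines, stood at 73.6, 35.4, 22.4 and 53.7 FPKM with tubastatin and at 83.0, 107, 111 and 142 FPKM with vehicle (-1.35). Gstm7, a glutathione transferase, stood at 0.807, 1.28, 0.749 and 0.813 FPKM with tubastatin and at 2.25, 2.04, 2.37 and 1.71 with vehicle (-0.70). None of these 3 overlapped. Fmo1 (-0.53), Gsta3 (-0.66), Dpep1 (-0.39), Aldh1a1 (-0.47), the carboxylesterase Ces1f (-0.67) and the sulfotransferase Sult1a1 (-0.26) were the others lower without overlap. Ugt1a7c, a glucuronosyl transferase, stood higher at 9.67 to 12.4 FPKM with tubastatin against 7.39 to 9.44 with vehicle (0.41). Some of these enzymes are also NRF2 targets, of which 8 of 22 were positive (median -0.107, or -0.032 without tubastatin replicate 2, -0.05 without vehicle replicate 4 and -0.192 without tubastatin replicate 4). The level of the small-molecule list was 0.014, -0.173, -0.267 and -0.067 with tubastatin and 0.014, 0.295, 0.098 and 0.087 with vehicle, so vehicle replicate 2 was highest, as it was for fat cell genes. The groups did not overlap, but tubastatin replicate 1 and vehicle replicate 1 differed by less than the digits given. Of the tested members, 3 reached a mean of 1 FPKM through the vehicle libraries alone, Gstm7 among them (tubastatin mean 0.913 FPKM).

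Fat cell and mitochondrial lists lay below 0. Adipocyte identity genes had 1 of 20 positive (median -0.262) and 0 without overlap, and their level was -0.085, -0.185, -0.210 and -0.044 with tubastatin and -0.174, 0.561, -0.039 and 0.177 with vehicle. Vehicle replicate 2 was thus the highest library by far, and without it the median was -0.106. The TCA cycle had 0 of 19 positive (median -0.103), branched-chain amino acid catabolism 2 of 20 (-0.105), fatty acid oxidation 3 of 22 (-0.139), the mitochondrially encoded genes 1 of 13 (-0.134) and thermogenic genes 1 of 8 (-0.121), again with vehicle replicate 2 highest in each. Without that library the medians were -0.008 for the TCA cycle, -0.024 for branched-chain amino acid catabolism, -0.025 for fatty acid oxidation, -0.041 for the mitochondrially encoded genes and -0.048 for thermogenic genes. Respiratory chain genes of the nucleus had 15 of 79 positive (median -0.055, and 0.019 with TPM), with 3 lower without overlap (3.8%, near the 3.58% of all genes). Among these 3 was the complex I subunit Ndufs8, at 37.9 to 41.0 FPKM with tubastatin and 44.0 to 47.4 FPKM with vehicle (-0.21). Mitochondrial ribosomal proteins had 7 of 76 lower without overlap (9.21%, beside 3.58% of all genes and 6.19% of those at 20 to 100 FPKM) and 0 higher, such as Mrpl54 (-0.15), Mrps28 (-0.21) and Mrps15 (-0.15), though their median of -0.020 became 0.052 with TPM and 0.005 without vehicle replicate 2.

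In lipid handling, Lpin1, a phosphatidate phosphatase of triglyceride synthesis, stood at 21.4, 17.3, 16.9 and 21.9 FPKM with tubastatin and at 24.5, 36.3, 23.8 and 27.3 FPKM with vehicle (log2 fold change -0.50). Mlxipl, the carbohydrate-sensing factor ChREBP, stood at 4.30, 4.03, 4.14 and 5.47 FPKM with tubastatin and at 5.78, 9.98, 5.75 and 6.08 FPKM with vehicle (-0.50). Adrb1, a beta-adrenergic receptor, stood at 0.843 to 1.19 FPKM with tubastatin and 1.34 to 2.01 FPKM with vehicle (-0.42). These 3 did not overlap, and for the first 2 the gap was narrow outside vehicle replicate 2. Dgat2, the last enzyme of triglyceride synthesis (-0.61), and Retn, the adipokine resistin (-0.88), overlapped. The median was -0.252 for lipogenesis (3 of 18 positive), -0.149 for triglyceride assembly (5 of 20), -0.182 for lipolysis (1 of 16), -0.200 for fatty acid uptake (1 of 17), -0.136 for adipokines other than leptin (5 of 18) and -0.059 for cholesterol genes (5 of 22). Without vehicle replicate 2 they were closer to 0, at -0.069 for lipogenesis, -0.035 for triglyceride assembly, -0.073 for lipolysis, -0.068 for fatty acid uptake, -0.059 for adipokines and 0.003 for cholesterol genes, which lay at -0.153 without tubastatin replicate 2. Against that direction stood Elovl5, a fatty acid elongase, at 28.1 to 28.8 FPKM with tubastatin and 25.0 to 26.2 with vehicle (0.15), and Acsl4, an acyl-CoA synthetase (0.46, with overlap). Lep stood at 352, 318, 265 and 430 FPKM with tubastatin and at 371, 798, 459 and 582 FPKM with vehicle (-0.66, limma adjusted p = 0.383), with overlap.

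Matrix genes were higher in 3 of the 4 tubastatin libraries. Collagen chains had 21 of 27 positive (median 0.269, or 0.176 without tubastatin replicate 2, 0.147 without vehicle replicate 4 and 0.407 without tubastatin replicate 1) and 0 without overlap. Their level was -0.377 in tubastatin replicate 1, against 0.253 to 0.446 in the other tubastatin libraries and -0.415 to 0.018 with vehicle. Crosslinking and matricellular genes had 28 of 34 positive (median 0.372, or 0.233 without tubastatin replicate 2 and 0.58 without tubastatin replicate 1). Only 1 stood higher without overlap (2.94%, near the 3.58% of all genes). It was Spp1, the macrophage and matrix cytokine osteopontin, at 125, 664, 917 and 168 FPKM with tubastatin and 60, 56, 55.8 and 48.9 FPKM with vehicle, the largest positive log2 fold change of the named genes (2.59, SE 0.61, limma adjusted p = 0.273). The values of tubastatin replicates 2 and 3 were far above those of replicates 1 and 4. Has1, a hyaluronan synthase, stood at 3.72, 7.58, 1.48 and 6.92 FPKM with tubastatin and at 0.751, 0.211, 0.576 and 0.617 FPKM with vehicle (1.80). Matrix proteases and inhibitors had 3 of 28 higher without overlap (10.7%, beside 3.58% of all genes) and 0 lower. They were Adamts4, an aggrecan protease (1.23), Plat, tissue plasminogen activator (0.69), and the gelatinase Mmp9 (0.71). Has1 and Adamts4 reached a mean of 1 FPKM through the tubastatin libraries alone (vehicle means 0.539 and 0.524 FPKM). The actin list had 12 of 30 positive (median -0.035, but 0.042 with TPM and 0.029 with quantile scaling), with the actin-binding profilin Pfn2 at 6.45 to 8.29 FPKM with tubastatin and 3.55 to 4.58 with vehicle (0.63). Of 13 tubulins tested 4 stood higher without overlap (30.8%), led by Tuba4a and Tubb4a. Of 18 clock genes 2 stood higher (11.1%) and 7 lower (38.9%), led by Nfil3 and Dbp. The share of all genes was 3.58% in each direction.

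Inflammatory genes were mixed. Of 38 chemokines and receptors, 8 stood higher and 2 lower at an unadjusted p under 0.05, beside 5.99% and 6.05% of all genes. Without overlap 3 stood higher (7.89%) and 1 lower (2.63%), beside 3.58% of all genes in each direction. Ccl12, a monocyte attractant, stood at 10.2, 32.5, 20.7 and 13.2 FPKM with tubastatin and at 3.79, 2.33, 6.38 and 1.76 FPKM with vehicle (log2 fold change 2.12). Ackr1, a chemokine-binding receptor of venules, stood at 7.7, 7.5, 6.58 and 7.16 FPKM with tubastatin and at 4.94, 5.5, 4.84 and 4.33 FPKM with vehicle (0.48). Ccl11, the eosinophil attractant eotaxin, stood lower, at 33.2 to 47.9 FPKM with tubastatin and 53.4 to 69.5 FPKM with vehicle (-0.54). Of 20 cytokine and Toll receptor genes 14 were positive (median 0.161, or 0.099 without vehicle replicate 2 and 0.078 without vehicle replicate 4). Of these 20 genes, 3 stood higher without overlap, namely Cd14 (0.64), Il1b (0.86) and Tlr2 (0.39). Lower without overlap was 1, Nos2 (-0.47), beside 3.58% of all genes in each direction. Il1b reached a mean of 1 FPKM through the tubastatin libraries alone (vehicle mean 0.456 FPKM). Secreted defence genes had 11 of 19 positive (median 0.060, and -0.002 to 0.116 with 1 library left out). Of these, the pattern receptor Ptx3 (1.26) and the protease inhibitor Serpina3n (0.63) stood higher without overlap (10.5%, beside 3.58% of all genes). Interferon-stimulated genes had 19 of 29 positive (median 0.095, but -0.086 without tubastatin replicate 3) and 0 at an unadjusted p under 0.05. MHC class I genes and the immunoproteasome had 0 of 17 positive (median -0.206) and 3 lower without overlap (17.6%, beside 3.58% of all genes). These were Psmb10, H2-Q4 (-0.39) and the shared light chain B2m at 2053 to 2196 FPKM with tubastatin and 2334 to 2726 FPKM with vehicle (-0.22). The level of the MHC class I list was highest in vehicle replicate 3 (0.497), as were those of MHC class II (0.607) and T cells (0.711). MHC class II had 3 of 14 positive (median -0.188), but the median was 0.182 with voom on recovered reads, so it has no settled direction. Without vehicle replicate 3 the median was -0.092 for the MHC class I list and -0.015 for MHC class II, which also moved to -0.372 without vehicle replicate 2, -0.111 without vehicle replicate 1 and -0.098 without tubastatin replicate 4.

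Markers of lymphocytes lay mostly below 0. Of 22 T and NK cell markers 17 were tested, 16 of them negative (median -0.521, or -0.335 without vehicle replicate 3) and 2 lower without overlap (11.8%, beside 3.58% of all genes). Cd8a, the coreceptor of cytotoxic T cells, stood at 1.80, 1.45, 1.01 and 1.32 FPKM with tubastatin and at 3.56, 2.23, 4.18 and 2.19 FPKM with vehicle (-0.73), and Cd247, the zeta chain of the T cell receptor complex, had -0.52. Cd247 reached a mean of 1 FPKM through the vehicle libraries alone (tubastatin mean 0.996 FPKM). All 22 markers together summed to 75.19 to 123.7 FPKM with tubastatin and to 96.96 to 189.1 FPKM with vehicle, which overlap. All 18 B and plasma cell markers were negative (median -0.612) with 0 without overlap, and their level was 0.549 in tubastatin replicate 1 and 1.021 in vehicle replicate 3. Mast cell markers had 1 of 11 positive (median -0.409, or -0.227 without vehicle replicate 4 and -0.237 without tubastatin replicate 2), with a level of 0.712 in vehicle replicate 4. Of the 12 neutrophil markers 11 had a higher mean with tubastatin, and of the 5 tested Retnlg reached a mean of 1 FPKM through the tubastatin libraries alone (1.886 FPKM on average, against 0.1496 with vehicle). S100a8 stood at 8.01 to 9.93 FPKM with tubastatin and 3.54 to 7.37 with vehicle (0.61). Macrophage markers had 13 of 18 positive (median 0.155, or 0.003 without vehicle replicate 2 and 0.054 without tubastatin replicate 3), with Timd4, a receptor of resident macrophages, lower (-0.65). Timd4 reached a mean of 1 FPKM through the vehicle libraries alone (tubastatin mean 0.703 FPKM). Lipid-associated macrophage markers had 2 of 15 positive (median -0.167, or -0.04 without tubastatin replicate 2), although Spp1 is one of them. Monocyte and dendritic cell markers had 5 of 10 positive and eosinophil markers 3 of 4.

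Adipose progenitor markers had 11 of 17 positive (median 0.114, or 0.019 without tubastatin replicate 4 and 0.018 without vehicle replicate 4), vessel endothelium 7 of 20, lymphatic endothelium 2 of 4, pericytes and smooth muscle 6 of 12 and Schwann cells 1 of 4, each with 0 members without overlap. With 1 library left out the medians ranged from -0.133 to 0.112 for vessel endothelium, -0.146 to 0.184 for lymphatic endothelium, -0.131 to 0.112 for pericytes and -0.161 to -0.025 for Schwann cells. Mesothelial markers had 8 of 13 positive (median 0.072, and -0.043 to 0.22 with 1 library left out), with Msln, the surface protein mesothelin, at 32.8 to 45.6 FPKM with tubastatin and 15.1 to 31.3 with vehicle (0.69). At an unadjusted limma p under 0.05, 3 of these 13 markers stood higher and 2 lower, beside 5.99% and 6.05% of all genes. The lower ones included Rspo1 (-0.375, with overlap). Msln was the only mesothelial marker without overlap (7.69%, beside 3.58% of all genes). Of 17 neuronal markers 5 were tested and 4 were positive, with the glycolytic enzyme Eno2 at 7.86 to 8.08 FPKM with tubastatin and 6.36 to 7.42 with vehicle (0.21). Over all 17, the mean was higher with tubastatin for 8 and lower for 9. Red blood cell markers had 5 of 5 positive (median 0.622, and 0.198 to 1.208 with 1 library left out) with levels of 1.598 in tubastatin replicate 2 and 1.433 in vehicle replicate 4, and skeletal muscle markers had 2 of 6 positive (median -0.113, and -0.244 to -0.018 with 1 library left out). The part of blood and lymphocyte content in the gene differences was not tested.

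**Figure D4:**
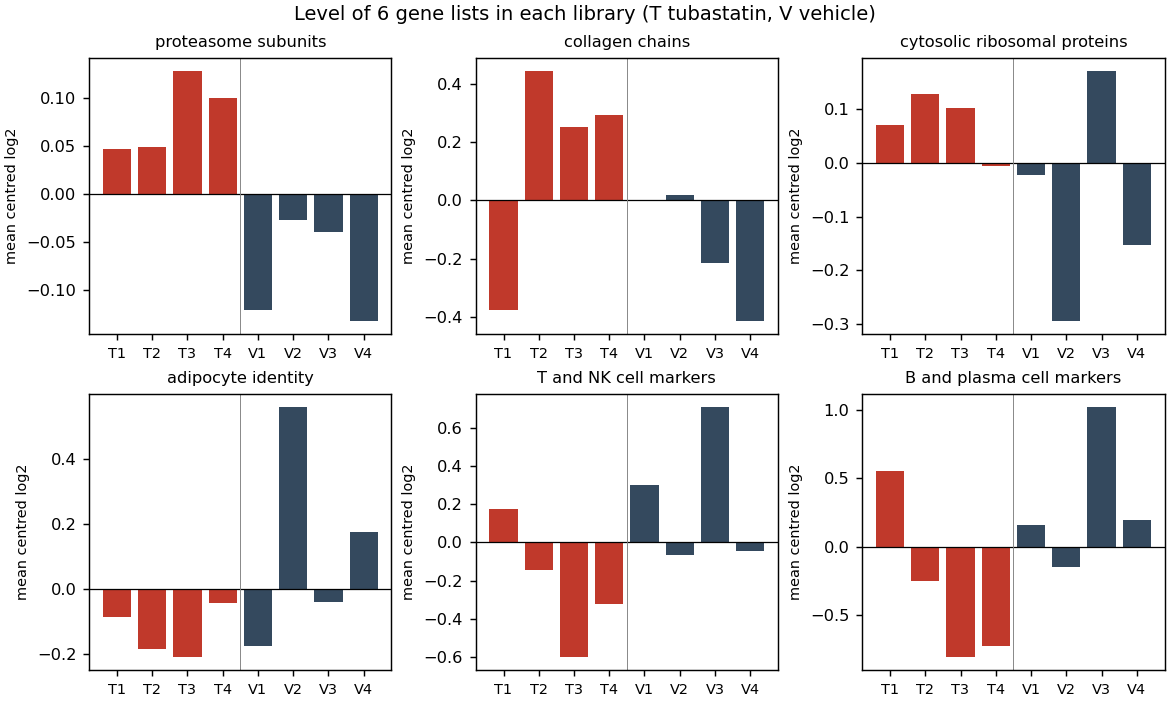
Bars give the level of 6 gene lists in each library, the mean over members of log2(FPKM + 1) centred per gene, with tubastatin (T1 to T4) left of vehicle (V1 to V4). The proteasome level is above 0 in all 4 tubastatin libraries and below 0 in all 4 vehicle libraries, while the other 5 lists drawn overlap between the groups. Lists not drawn, such as the immediate early, neutrophil and clock lists, also had levels without overlap.

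The largest differences on the lower side were immunoglobulin segments, whose values jump between libraries. Igkv10-94, a kappa variable segment, stood at 15.9, 41.4, 20.6 and 13.6 FPKM with tubastatin and at 135, 109, 244 and 43.8 FPKM with vehicle (log2 fold change -2.38). Ighv12-3, a heavy chain segment, stood at 5.03, 6.92, 5.09 and 5.82 FPKM with tubastatin and at 23.2, 21.4, 10.5 and 11.5 FPKM with vehicle (-1.32). Ighv1-22 stood the other way at 54.3, 17.1, 12.6 and 13.0 FPKM with tubastatin and 9.97, 3.14, 9.36 and 7.67 FPKM with vehicle (1.39). Of all such segments, 66 of 190 tested were positive (median -0.322, and -0.624 to -0.161 with 1 library left out) and 8 (4.21%) stood lower without overlap, near the 3.58% of all genes. The sources do not say how reads were divided between similar segments. The constant region genes Igkc and Ighm overlapped, at 2812 to 5848 and 1753 to 3713 FPKM with tubastatin and at 3287 to 12360 and 2081 to 7008 FPKM with vehicle.

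**Figure D5:**
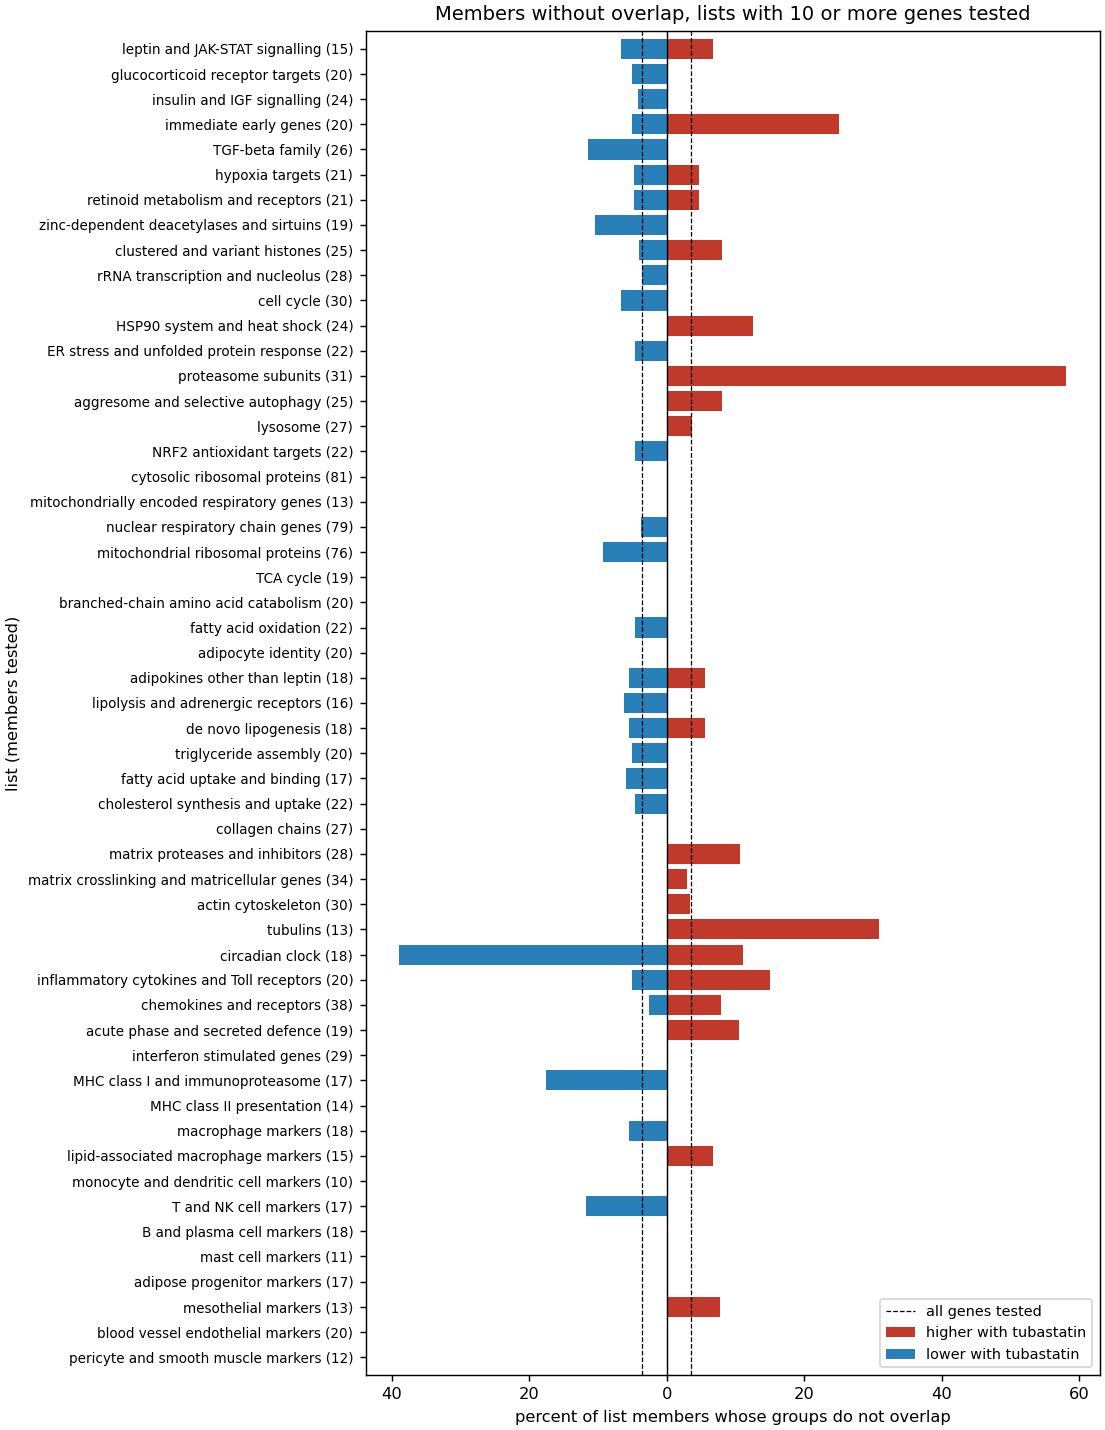
Bars give the percent of tested members of each list with 10 or more tested genes whose 4 tubastatin values all lie above (red, right) or all below (blue, left) the 4 vehicle values. The dashed lines mark 3.58% in each direction for all 13282 genes, and the proteasome list reaches 58.1%.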

How the data were processed

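The authors deposited 1 table of FPKM values for 16 libraries of total RNA. Trizol extraction, DNase treatment and RNeasy columns are given per the labels' protocols, while the aligner, counter, build, strand setting and kit are not given in these sources. Columns were matched to samples by title, leaving 0 without a sample. Of the 54532 gene IDs 54409 had a symbol. With GENCODE M21 exon lengths, 96.39 to 96.51% of nonzero values were whole reads to a tolerance of 0.01 read, and for 12630 tested genes (95.1%) this held in each of the 8 libraries. Coordinates are those of GRCm38, the build of that annotation and not one stated by the authors.

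The 8 libraries entered limma-trend (version 3.58.1 in R 4.3.3) as log2(FPKM + 1), for genes averaging at least 1 FPKM, two-sided, with Benjamini-Hochberg adjustment over 13282 genes at 0.05. Just above the limit 253 genes had a mean of 1 to 1.1 FPKM, and just below it 284 had 0.9 to 1. Of the genes tested, 187 had a tubastatin mean under 1 FPKM and 215 a vehicle mean under 1. Hdac6 was tested by an exact permutation test over 70 relabelings (SciPy 1.17.1). Libraries of a group differed by more than sampling noise (chi-square per gene 23.0 to 69.5). A list level is the mean over tested members of the log values, each centred on its gene's mean.

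The members, the 63 gene lists and the tests were chosen with earlier results of these data known, and 4 lists were added after seeing the values, so lists are described by counts and medians with no test. Named genes were Hdac6 and Lep, the 12 smallest p and the 8 largest fold changes per direction without overlap, up to 3 members per list and the 10 most abundant genes, leaving out predicted genes and clones. Other names were chosen after their values were seen. On reads simulated for 12630 genes from these libraries, limma-trend recovered, of 50 genes changed at each size, 29 (1.5-fold), 37 (2-fold), 46 (3-fold) and 45 (4-fold), with 8 false calls. Each gene was drawn on its own, with no difference shared across a library. The changed genes also eased the adjustment threshold for each other, whereas 0 genes passed in the real libraries. Recovery in the real libraries may thus be lower. Alternatives were pseudocounts of 0.1 and 0.5, no filter, a mean of at least 5 FPKM, median-of-ratios, TPM and quantile scaling, 1 spread shared by 16 libraries, voom on recovered reads, the replicate block and libraries left out.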

Additional observations from a re-analysis of the deposited data

Results flagged for a closer look

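Of 370 groups of 4 values examined over the named genes and the list levels, 25 held a highest or lowest library far from the nearest other one, where chance flags about 1 in 20 groups. Among proteasome genes, Psmd3 was high in tubastatin replicate 2 (27.7 FPKM, others 26.8 to 26.9), Psmb5 in tubastatin replicate 3 (91.3, others 75.6 to 76.5), Psmb7 in vehicle replicate 2 (22.6, others 17.2 to 17.9) and Psme2 in vehicle replicate 3 (71.7, others 55.9 to 57.3).

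Other tubastatin values that stood apart were Hist1h1c, low in replicate 1 (87.3 FPKM), Gstm7, high in replicate 2 (1.28), Pfn2, high in replicate 4 (8.29), Ighv1-22, high in replicate 1 (54.3), and Sult1a1 and Mrps15, both low in replicate 3 (44.8 and 17.2 FPKM). In vehicle replicate 2, Fmo1 (24.3 FPKM), Sult1a1 (75.7), Mlxipl (9.98) and Dgat2 (636) were high. Fbxo2 (0.673 FPKM) and Cd247 (2.49) were high in vehicle replicate 3 and Dpep1 (92.6) in vehicle replicate 4.

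Of the list levels, glucocorticoid targets were high in tubastatin replicate 4 (0.195, others -0.045 to -0.030), lysosomal genes low in tubastatin replicate 2 (-0.203) and endothelial markers low in tubastatin replicate 1 (-0.217). In vehicle replicate 2 the TCA cycle (0.36), thermogenic (0.451) and lipogenesis (0.555) lists were high. The actin list was low in tubastatin replicate 1 (-0.074) and in vehicle replicate 2 (-0.092).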

How the results depend on the processing

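Limma-trend called 0 genes as deposited, with 1598 at an unadjusted p under 0.05, and voom on the recovered reads also called 0, with 774 higher and 773 lower. The count of called genes was 1 with no filter on low values (Gm20405), 8 with 1 spread shared by all 16 libraries (Ahr, Fbxl16, Fbxo2, Ndrg4, Psmd11, Rdh10, Socs3, Ubtf), 6 without tubastatin replicate 1 (Cxcl5, Fbxo2, Hist1h2bj, Loxl2, Ndrg4, Ptprn) and 1 without tubastatin replicate 2 (Gm17622). It was 0 under the other alternatives. Of the genes called, Cxcl5 reached a mean of 1 FPKM through the tubastatin libraries alone (vehicle mean 0.327 FPKM), as did Fbxo2 and Fbxl16. Genes without overlap numbered 951, with 578 at a mean of at least 5 FPKM, 1453 with no filter, 1213 to 1858 with 1 library left out and 2820 without vehicle replicate 2 and tubastatin replicate 1, where fewer libraries must separate. Genes at an unadjusted p under 0.05 numbered 969 at a mean of at least 5 FPKM, 2593 with no filter, and 1024 (without tubastatin replicate 2) to 1809 (without tubastatin replicate 1) with 1 library left out, and 1970 without vehicle replicate 2 and tubastatin replicate 1. The Hdac6 difference, a p of 0.83, changed sign without tubastatin replicate 3 (0.857), vehicle replicate 1 (0.686) and vehicle replicate 3 (0.971), and was 0.3 without vehicle replicate 2 and tubastatin replicate 1 (exact permutation tests). Same-numbered libraries did not deviate together (correlations of -0.084, -0.011, -0.024 and 0.018). Whether the numbers pair the samples is not stated, and correlations over all genes cannot settle it, since a pairing may touch few genes. With the replicate block 0 genes were called and 1485 had an unadjusted p under 0.05. The proteasome counts of 18 without overlap and 21 at an unadjusted p under 0.05 stayed within 1.5 times under every alternative run. Low genes such as Hist1h2bj rest on few reads.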

Other observations

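The most abundant named genes overlapped between the groups, B2m apart. Ferritin heavy chain Fth1 stood at 2807 to 3934 FPKM with tubastatin and 3139 to 3920 with vehicle, the lipoprotein gene Apoe at 2503 to 3423 and 1889 to 3044 FPKM, and the sphingolipid activator Psap at 2507 to 3292 and 2926 to 3764 FPKM. Lyz2, a macrophage lysozyme, stood at 2059 to 2550 and 1485 to 2418 FPKM, and the cytochrome oxidase gene mt-Co1 at 5612 to 6075 and 5351 to 7799 FPKM. The predicted gene Gm23935 alone stood at 15460 to 18790 FPKM with tubastatin and 16620 to 24000 with vehicle, highest in vehicle replicate 2.

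Spread differed between the groups. The median SD of a gene was 0.108 on the log2 scale with tubastatin and 0.132 with vehicle, and 59.7% of genes varied more with vehicle. By annotated type, 11835 protein-coding genes had a median log2 fold change of -0.013, 73 small nucleolar RNA genes 0.061 and 110 microRNA genes -0.183. Of the microRNA genes 1 stood higher (0.909%) and 4 lower (3.64%) without overlap, beside 3.58% of all genes in each direction. Such short genes can rest on few reads, as Mir7086 did with 0 to 7.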
